A study of Mus musculus with 6 samples.

Results

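Transcripts of 10 marker genes of lipid-associated and monocyte-derived macrophages, Gpnmb, Clec7a, Trem2, Spp1, Cd9, Lgals3, Mmp12, Itgax, Ccr2 and Lyz2, were followed in fatty mouse liver. They were taken by gene symbol from a matrix of 22851 genes, and all 10 were present. Liver RNA came from male C57BL/6J mice, an inbred strain, all kept on a high-fat diet. The treated mice received ONX-0914, an inhibitor of the immunoproteasome subunit PSMB8, injected under the skin at 10 mg/kg on alternate days over 6 weeks, and the control mice received vehicle. There were 3 libraries per group, ONX-0914 1, 3 and 4 and vehicle 1, 2 and 4. The design text gives fewer animals per group, so which libraries are separate animals is not known and p-values measure the spread between libraries. The labels used here state no age, and a lean group was not analysed here.

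Resident Kupffer cells are the liver's own macrophages. In a fatty liver they are joined by cells that arrive as blood monocytes through the chemokine receptor CCR2 and mature into macrophages. Some of these take on a lipid-associated state that is recognised by TREM2, GPNMB, CD9 and osteopontin, the product of Spp1, and that handles lipid, dead cells and matrix. None of the 10 genes is exclusive to that state. Lyz2 is shared by most myeloid cells, Itgax by dendritic cells, Spp1 by bile duct cells, and Cd9 and Lgals3 by many epithelial and stromal cells. In RNA of whole liver, fewer cells of a type and less RNA per cell cannot be told apart.

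In treated libraries, Gpnmb, Clec7a and Mmp12 fell to 6.05%, 7.55% and 11.2% of their vehicle means, while Spp1 and Cd9 were not called in either direction. The other 5 lay between these extremes, Lyz2 at 32.8%, Itgax at 39.96%, Ccr2 at 42.8%, Trem2 at 48.3% and Lgals3 at 52.7% of the vehicle mean. The test was limma over the 10743 genes that exceeded 1 FPKM in 3 or more libraries, with a call at an adjusted p under 0.05, and it called 8 of the 10 markers lower. None was called higher by limma, and none at an unadjusted p under 0.05. In the same test 43.5% of all genes were called lower and 2.56% higher, so a called fall was common among genes in general. The median log2 fold change was -1.02 over the 10 markers and -0.64 over all tested genes. Each of the 8 also had every ONX-0914 library below every vehicle library, as did 53.5% of all tested genes. No marker had every ONX-0914 library above every vehicle library, as 4.93% of all tested genes did. All 10 markers passed the filter on low values, Itgax only through the vehicle libraries.

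Values for single libraries are given throughout in the order 1, 3, 4 for ONX-0914 and 1, 2, 4 for vehicle. The deposited unit is FPKM, a read count divided by transcript length and sequencing depth, and its sums ran from 1041391 to 1247789 in treated libraries and from 993264 to 1074027 in vehicle libraries. A principal component that held 77.3% of the variance placed the treated libraries at 73.95, 10.6 and 67.81 and the vehicle libraries between -56.07 and -47.2, so the library ONX-0914 3 lay between the groups. Long transcripts were low relative to short ones in treated libraries. Taking log2 differences from the vehicle mean, the median of the longest 25% of transcripts less the median of the shortest 25% was -0.95, -0.25 and -0.99 with ONX-0914, against 0.04, -0.01 and -0.03 with vehicle. Hepatocyte genes went both ways. Of 12, 5 were called lower and 1, Apoa1, higher, beside 43.5% and 2.56% of all genes. Apoa1, an apolipoprotein gene, was at 12369, 12120 and 10639 FPKM with ONX-0914 and 7199, 9246 and 6366 FPKM with vehicle. Alb, the albumin gene, was at 31522, 36265 and 17654 FPKM with ONX-0914 and 47971, 45727 and 44524 FPKM with vehicle. It was not called (adjusted p = 0.0669 by limma). Hnf4a, the gene of a hepatocyte transcription factor, was at 6.26, 40.7 and 5.94 FPKM with ONX-0914 and 58.5, 51.7 and 68.6 FPKM with vehicle.

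Each marker is therefore also given under other scalings. Median ratio scaling brings the median gene to -0.01, and 14.2% of genes were then called lower and 13.8% higher. Length correction, which takes each library's trend with transcript length out, left 11.6% lower and 9.51% higher. Quantile normalization left 12.4% lower and 10.4% higher. The share of genes with every treated library below every vehicle library was 24.1%, 21.6% and 21.5% under these scalings. Of the 10 markers, 3, 5 and 4 were called lower and 2, 0 and 0 higher. Without ONX-0914 3, on the deposited scale, 60.6% of genes and 8 markers were lower, and 6.89% of genes and 1 marker, Spp1, were higher.

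**Figure D1:**
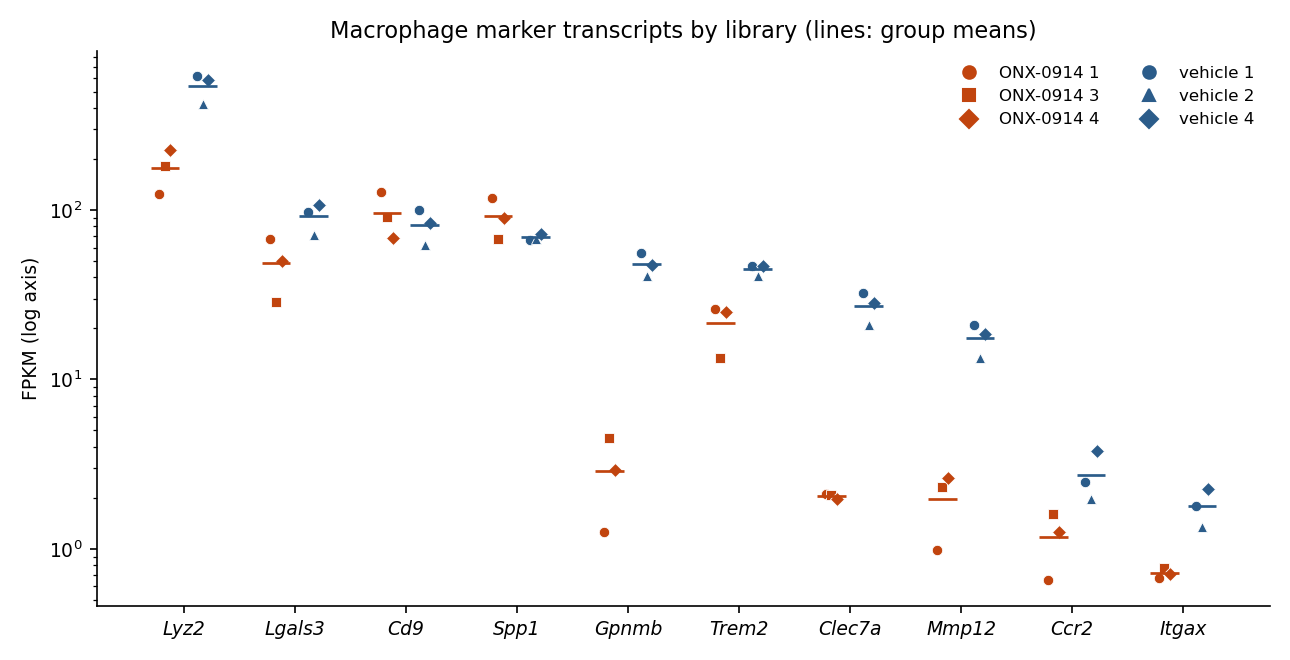
FPKM (log axis) of the 10 markers in each library, ONX-0914 left of vehicle within each gene, genes ordered by vehicle mean, with a short line at each group's mean (n = 3 each). Gpnmb, Clec7a and Mmp12 lie between 0.98 and 4.50 FPKM in treated libraries and between 13.4 and 55.4 in vehicle libraries, whereas the groups overlap for Spp1 and Cd9.

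Gpnmb encodes a transmembrane glycoprotein of lysosomes and the cell surface that macrophages make when loaded with lipid. Its level was 1.26, 4.50 and 2.92 FPKM with ONX-0914 and 55.4, 41.0 and 47.1 FPKM with vehicle. The groups were far apart, and ONX-0914 1 was the lowest library. Gpnmb averaged 2.89 ± 1.62 FPKM in treated libraries and 47.9 ± 7.20 FPKM in vehicle libraries (SD, n = 3 each). That is a 16.5-fold lower mean and a log2 fold change of -3.73 ± 0.34 (SE, adjusted p = 0.000837 by limma). Only 6 of the 10743 tested genes had a lower log2 fold change, as Gpnmb stood at rank 7 from the lowest. It was at -3.05 (adjusted p = 0.0036) under ratio scaling and at -2.89 (adjusted p = 0.0017) after length correction.

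Clec7a encodes Dectin-1, a receptor for fungal beta-glucan that lipid-associated macrophages and other myeloid cells carry. Its level was 2.10, 2.08 and 1.98 FPKM with ONX-0914 and 32.5, 21.0 and 28.1 FPKM with vehicle. The treated libraries were nearly equal, with a coefficient of variation of 3.13%, including ONX-0914 3. Clec7a averaged 2.05 ± 0.0643 FPKM in treated libraries and 27.2 ± 5.76 FPKM in vehicle libraries (SD, n = 3 each), with a log2 fold change of -3.19 ± 0.26 (SE, adjusted p = 0.000675 by limma). It was at -2.51 (adjusted p = 0.0036) under ratio scaling and at -2.59 (adjusted p = 0.0014) after length correction.

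Mmp12 encodes macrophage elastase, a secreted protease that cuts elastin and other matrix proteins. Its level was 0.98, 2.30 and 2.61 FPKM with ONX-0914 and 20.8, 13.4 and 18.5 FPKM with vehicle. The lowest vehicle library was still above every treated one. Mmp12 averaged 1.96 ± 0.866 FPKM in treated libraries and 17.6 ± 3.81 FPKM in vehicle libraries (SD, n = 3 each), an 8.94-fold lower mean and a log2 fold change of -2.67 ± 0.31 (SE, adjusted p = 0.00131 by limma). It was at -2.03 (adjusted p = 0.00682) under ratio scaling and at -1.84 (adjusted p = 0.00674) after length correction.

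These 3 genes were called lower under each of 16 alternative settings, with log2 fold changes between -4.16 and -2.52 for Gpnmb, between -3.64 and -1.97 for Clec7a and between -3.18 and -1.46 for Mmp12. In ONX-0914 3 alone against the vehicle libraries, whose spread it is taken to share, the values were -3.14, -3.17 and -2.47. Low values rest on few reads. Steps in the smallest values, taken with the longest transcript of each gene, put the libraries at roughly 11900000 to 14800000 counted reads with ONX-0914 and 13400000 to 18900000 with vehicle. On that estimate Gpnmb had about 69.1 to 198 reads per treated library and 2624 to 2865 per vehicle library, Clec7a 56.4 to 70.8 and 904 to 992, and Mmp12 52.4 to 124 and 909.9 to 1008.

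On GRCm38, in the GENCODE M21 annotation, Gpnmb lies at chr6:49036546-49070929 on the plus strand, Clec7a at chr6:129461591-129472779 on the minus strand and Mmp12 at chr9:7344381-7369499 on the plus strand. Mmp12 overlaps Mmp1b on the opposite strand, and since counting by strand is not stated, reads of such partners cannot be told apart. Spp1 (chr5:104435118-104441050, plus strand) overlaps the annotated locus Gm42793, with which it shares 9.05% of its 50-base stretches. Trem2 lies at chr17:48346401-48354147, Lgals3 at chr14:47367751-47386160, Itgax at chr7:128129547-128150657 and Ccr2 at chr9:124101950-124113557, all on the plus strand, and Cd9 at chr6:125460266-125494791 and Lyz2 at chr10:117277331-117282321 on the minus strand.

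The bases just upstream of the transcription start are shown for these 3 genes that fell together and for Spp1, which did not fall with them. Each is the 250 bases before the first start that RefSeq lists for the gene, on GRCm38.p6, read along the gene's strand. Capitals mark matches, on both strands, to TGANTCA (bound by AP-1), GAGGAA and its longer form GAGGAAGT (bound by ETS factors such as PU.1, a factor that macrophages need), CACGTG (bound by MITF and TFEB) and TTGCNNAA (bound by C/EBP factors).
Gpnmb, chr6:49036268-49036517, plus strand: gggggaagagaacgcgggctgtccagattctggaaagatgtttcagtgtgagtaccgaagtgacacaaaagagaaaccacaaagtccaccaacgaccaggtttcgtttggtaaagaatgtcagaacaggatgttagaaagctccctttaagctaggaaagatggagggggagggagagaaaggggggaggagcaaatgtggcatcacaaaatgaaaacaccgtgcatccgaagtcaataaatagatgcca
Clec7a, chr6:129472780-129473029, minus strand: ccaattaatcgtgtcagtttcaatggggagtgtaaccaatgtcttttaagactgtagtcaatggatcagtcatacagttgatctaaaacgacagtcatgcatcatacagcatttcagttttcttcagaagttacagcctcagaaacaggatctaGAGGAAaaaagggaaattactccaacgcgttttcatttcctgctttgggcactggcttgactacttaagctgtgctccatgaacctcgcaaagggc
Mmp12, chr9:7344147-7344396, plus strand: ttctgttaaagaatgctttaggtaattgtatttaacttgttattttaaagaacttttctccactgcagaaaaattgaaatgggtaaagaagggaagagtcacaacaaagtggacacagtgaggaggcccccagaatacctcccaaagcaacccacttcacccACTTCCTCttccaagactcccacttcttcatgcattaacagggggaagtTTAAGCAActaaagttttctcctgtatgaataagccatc
Spp1, chr5:104434861-104435110, plus strand: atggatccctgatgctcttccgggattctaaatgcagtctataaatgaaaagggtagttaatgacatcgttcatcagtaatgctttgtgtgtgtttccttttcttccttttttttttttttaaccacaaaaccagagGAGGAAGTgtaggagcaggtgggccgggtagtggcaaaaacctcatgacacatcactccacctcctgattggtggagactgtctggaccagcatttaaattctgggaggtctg
The long form GAGGAAGT was in the Mmp12 window at positions -88 to -81 from the start, as its reverse complement, and in the Spp1 window at positions -113 to -106. It was in 2.44% of the 27025 promoter windows of this length, and the short form GAGGAA in 23.1%. Clec7a held only the short form, and the Gpnmb window held none of these letter strings. Over the first windows of all 10 markers, 2 held the long form, 4 the short form, 2 TGANTCA (in 6.87% of all windows), 1 TTGCNNAA (in 9.55%) and none CACGTG (in 6.05%). The long form was thus shared by Mmp12, which fell, and Spp1, which did not.

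Trem2 encodes the lipid-sensing receptor after which the lipid-associated state is often named. Its level was 26.2, 13.4 and 24.99 FPKM with ONX-0914 and 46.7, 40.6 and 46.4 FPKM with vehicle. The groups did not overlap, and ONX-0914 3 was lowest. The means were 21.5 ± 7.05 FPKM in treated libraries and 44.6 ± 3.47 FPKM in vehicle libraries (SD, n = 3 each), a log2 fold change of -1.07 ± 0.27 (SE, adjusted p = 0.0134 by limma). It did not pass under ratio scaling (-0.29, adjusted p = 0.566), and passed after length correction (-0.99, adjusted p = 0.022). Without vehicle 1 or vehicle 4 the adjusted p was 0.0549 and 0.0512.

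Set against Trem2 of the same library, on the log2(FPKM + 1) scale, the markers did not keep one proportion. The log2 difference of Gpnmb from Trem2 was -3.59, -1.39 and -2.73 with ONX-0914 and 0.24, 0.02 and 0.02 with vehicle. In vehicle libraries Gpnmb and Trem2 were thus at about the same FPKM, and in every treated library Gpnmb was below Trem2. The change in that difference, treated minus vehicle, was -2.66 for Gpnmb, -2.12 for Clec7a and -1.60 for Mmp12, and 1.45 for Spp1 and 1.27 for Cd9, with no overlap between groups for these 5. Of all other tested genes, 1.63% had every treated library below every vehicle library on this scale and 32.3% above. For Lgals3, Itgax, Ccr2 and Lyz2 it was 0.10, 0.38, 0.29 and -0.55, and the groups overlapped. After length correction the change was smaller for Gpnmb (-1.90), Clec7a (-1.60) and Mmp12 (-0.85), 1.69 for Spp1 and 1.36 for Cd9. It was then 1.17 for Itgax and 1.13 for Ccr2, whose groups no longer overlapped. The share of all genes without overlap was not taken on this corrected scale, so nothing particular to Itgax and Ccr2 is read from it. Of the 9 differences on the deposited scale, those of Gpnmb, Clec7a, Mmp12, Spp1 and Cd9 reached p = 0.1 in a two-sided exact permutation test, the smallest that 3 against 3 libraries can give. The design thus cannot pass 0.05 on this measure, with or without adjustment. Trem2 was chosen for this comparison after its values were seen.

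Spp1 encodes osteopontin, a secreted ligand of integrins and CD44. Its level was 118.5, 67.6 and 89.9 FPKM with ONX-0914 and 66.2, 67.8 and 72.6 FPKM with vehicle. Treated libraries 1 and 4 were above every vehicle library and ONX-0914 3 was within their range. The log2 fold change was 0.38 ± 0.23 (SE, 95% interval -0.15 to 0.90, adjusted p = 0.203 by limma). Spp1 rose under ratio scaling (1.17, adjusted p = 0.0305) and without ONX-0914 3 (0.58, adjusted p = 0.0191), and after length correction it had 0.70 (adjusted p = 0.0636). In ONX-0914 3 alone it was at -0.02. Of the 12 bile duct cell markers, a cell type that also makes osteopontin, 9 were tested. Of these 4 fell and 1 rose, beside 43.5% of all genes lower and 2.56% higher. Sox9, counted among the 4, passed the filter only through the vehicle libraries. Under ratio scaling none fell and 1 rose, beside 14.2% of all genes lower and 13.8% higher. The summed level of the 12 bile duct cell markers was 28.1 to 37.5 FPKM in treated libraries and 50.9 to 58.1 FPKM in vehicle libraries. Most of it came from Anxa4, at 20.09, 25.07 and 17.01 FPKM with ONX-0914 and 39.52, 33.99 and 33.34 FPKM with vehicle. Krt19 was at most 1.81 FPKM and Cftr at most 0.07 FPKM in any library, and the part of these cells in the Spp1 values was not tested.

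Cd9 encodes a tetraspanin, a membrane organiser found on lipid-associated macrophages and on many other cells. Its level was 127, 90.8 and 68.4 FPKM with ONX-0914 and 99.7, 61.7 and 83.9 FPKM with vehicle. The groups overlapped across most of their range. The log2 fold change was 0.20 ± 0.28 (SE, 95% interval -0.42 to 0.82, adjusted p = 0.556 by limma), and without ONX-0914 1 it was -0.03. Under ratio scaling Cd9 rose (0.99, adjusted p = 0.0416), and after length correction it had 0.37 (adjusted p = 0.341). Of the 50-base stretches of its longest transcript, 15.5% also occur in a Cd9 pseudogene or in a gene on the opposite strand, so its level is uncertain.

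Lgals3 encodes galectin-3, a sugar-binding protein that macrophages secrete. Its level was 67.6, 28.6 and 49.7 FPKM with ONX-0914 and 97.7, 71.7 and 107 FPKM with vehicle. The highest treated library lay just below the lowest vehicle library. Its log2 fold change was -0.97 ± 0.31 (SE, adjusted p = 0.0313 by limma), and -0.18 (adjusted p = 0.756) under ratio scaling and -0.70 (adjusted p = 0.138) after length correction. The call was lost without vehicle 1, vehicle 4 or ONX-0914 4 (adjusted p = 0.097, 0.106 and 0.0727), and with no filter on low values (adjusted p = 0.0573).

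Lyz2 encodes lysozyme, an antibacterial enzyme of macrophages, monocytes and neutrophils, and was the most abundant of the 10. Its level was 124, 183 and 225 FPKM with ONX-0914 and 619, 422 and 583 FPKM with vehicle. Every treated library was well below every vehicle library. The means were 178 ± 50.8 FPKM in treated libraries and 541 ± 105 FPKM in vehicle libraries (SD, n = 3 each), a log2 fold change of -1.62 ± 0.26 (SE, adjusted p = 0.00254 by limma). It was at -1.41 (adjusted p = 0.0126) after length correction, but did not pass under ratio scaling (-0.83, adjusted p = 0.0709). The neighbouring paralog Lyz1 shares 15.4% of the 50-base stretches of Lyz2 and was at 0.00 to 0.50 FPKM in treated libraries and 0.30 to 1.74 FPKM in vehicle libraries.

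Neutrophils also carry Lyz2, and their genes varied widely within both groups. S100a8, a calprotectin subunit, was at 1336, 102 and 2804 FPKM with ONX-0914 and 169, 151 and 1094 FPKM with vehicle. Over all libraries S100a8 was highest in ONX-0914 4 and Lyz2 in vehicle 1. Among treated libraries both were highest in ONX-0914 4. Among vehicle libraries S100a8 was highest in vehicle 4 and Lyz2 in vehicle 1. Of 14 neutrophil markers 11 were tested, and limma called none lower or higher, with 1 lower and none higher at an unadjusted p under 0.05. Of all tested genes 43.5% were lower and 2.56% higher. Without ONX-0914 3, 6 neutrophil markers were called higher and 1 lower, beside 6.89% of all genes higher and 60.6% lower. Their summed level was 191 to 4873 FPKM in treated libraries and 315 to 1910 FPKM in vehicle libraries, and its part in the Lyz2 values was not tested.

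Itgax encodes CD11c, an integrin subunit of monocyte-derived macrophages and dendritic cells. Its level was 0.67, 0.77 and 0.71 FPKM with ONX-0914 and 1.78, 1.34 and 2.26 FPKM with vehicle. No treated library reached 1 FPKM, and each rested on roughly 37.1 to 40.2 reads by the estimate above. Its log2 fold change of -0.69 ± 0.20 (SE, adjusted p = 0.0217 by limma) understates the change, because 1 is added to each value before the log. With 0.1 added it was -1.19 (adjusted p = 0.0376). It had -0.27 (adjusted p = 0.318) under ratio scaling and 0.18 (adjusted p = 0.578) after length correction. The call was also lost without vehicle 1 or 4 or without ONX-0914 1 or 4 (adjusted p = 0.0753, 0.0907, 0.063 and 0.0527). The related integrin gene Itgad holds 9.61% of the 50-base stretches of Itgax.

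Ccr2 encodes the receptor by which monocytes leave the marrow and enter inflamed tissue. Its level was 0.65, 1.60 and 1.26 FPKM with ONX-0914 and 2.47, 1.96 and 3.78 FPKM with vehicle. The groups did not overlap, but ONX-0914 3 came close to vehicle 2. Its log2 fold change was -0.78 ± 0.27 (SE, adjusted p = 0.0401 by limma), -0.29 (adjusted p = 0.408) under ratio scaling and 0.15 (adjusted p = 0.698) after length correction. It stayed past the threshold without ONX-0914 3 (adjusted p = 0.012) and missed it with any other library left out (adjusted p = 0.0584 to 0.149). With 0.1 in place of 1 added before the log the adjusted p was 0.0591, and with no filter on low values 0.0732.

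**Figure D2:**
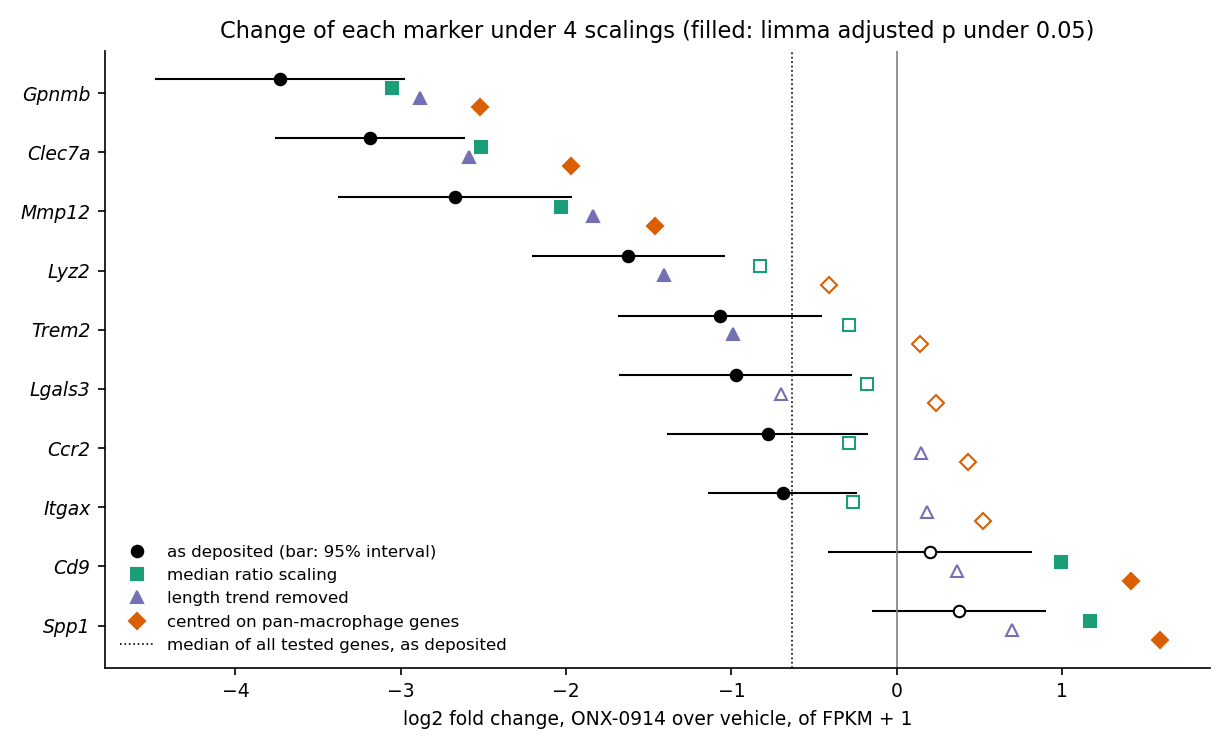
Log2 fold change of each marker, ONX-0914 over vehicle, as deposited with its 95% interval, under ratio scaling, after length correction and centred on 16 pan-macrophage genes. Filled symbols passed limma at an adjusted p under 0.05. Gpnmb, Clec7a and Mmp12 are filled and below 0 under all 4, Lyz2, Trem2, Lgals3, Ccr2 and Itgax change side of 0 or lose the call in at least 1 of them, and Spp1 and Cd9 are at or above 0.20.

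The order of the levels also differed between groups. By mean FPKM, a value per length, treated libraries ran Lyz2, Cd9, Spp1, Lgals3, Trem2, Gpnmb, Clec7a, Mmp12, Ccr2 and Itgax. Vehicle libraries ran Lyz2, Lgals3, Cd9, Spp1, Gpnmb, Trem2, Clec7a, Mmp12, Ccr2 and Itgax. In treated libraries the ranges of Lyz2 and Cd9, of Cd9 and Spp1, and of each neighbouring pair from Gpnmb to Itgax overlapped. In vehicle libraries those of Lgals3 and Cd9, Cd9 and Spp1, Gpnmb and Trem2, and Ccr2 and Itgax overlapped. Because long transcripts were low in treated libraries, the order was also taken after length correction. In treated libraries Spp1 then stood above Cd9 and Mmp12 above Clec7a, the other places were as before, and the order in vehicle libraries was the same. Of the summed FPKM of the 10 markers, 395 to 469.6 in treated libraries and 742 to 1042 in vehicle libraries, Spp1 made up 17.1% to 25.2% in treated libraries and 6.35% to 9.14% in vehicle libraries. Gpnmb made up 0.268% to 1.14% in treated libraries and 4.75% to 5.53% in vehicle libraries. Trem2 made up 3.40% to 5.57% in treated libraries, against 4.48% to 5.47% in vehicle libraries.

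Genes that most macrophages express were lower too in many cases. Of 16 pan-macrophage genes 9 fell and none rose by limma (10 and none at an unadjusted p under 0.05), beside the 43.5% of all genes called lower. The largest falls were those of Laptm5 (-3.18), a lysosomal membrane protein gene, Mpeg1 (-3.08), which encodes the pore-forming perforin-2, Cybb (-2.82), the NADPH oxidase subunit gene, and Adgre1 (-2.04), the F4/80 gene. Cybb passed the filter only through the vehicle libraries, at 0.43, 0.82 and 0.56 FPKM with ONX-0914. Others were not called, such as Aif1 (0.25, adjusted p = 0.535), Tyrobp (-0.05, adjusted p = 0.94) and Fcgr1 (-0.09, adjusted p = 0.824). Under ratio scaling 5 of the 16 fell, beside 14.2% of all genes. Their mean log2 level was 3.53, 3.40 and 3.25 with ONX-0914 and 4.58, 4.43 and 4.81 with vehicle.

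Relative to that mean of the same library, Gpnmb stood at -2.36, -0.94 and -1.28 with ONX-0914 and 1.23, 0.96 and 0.78 with vehicle. Clec7a and Mmp12 were likewise lower relative to pan-macrophage genes, by -1.97 and -1.46 on average, with no overlap between groups. Trem2 was at 1.23, 0.45 and 1.45 in treated libraries, against 0.99, 0.95 and 0.76 in vehicle libraries, so the groups overlapped. Lgals3 (0.24), Ccr2 (0.43) and Lyz2 (-0.41) also overlapped between groups, and Itgax (0.52) did not overlap but was not called. Spp1 and Cd9 were higher relative to these genes, by 1.59 and 1.42, with no overlap. With the whole table centred in this way, limma called Gpnmb, Clec7a and Mmp12 lower and Spp1 and Cd9 higher, beside 2.77% of all genes lower and 35.9% higher. On this scale 3.52% of all genes had every treated library below every vehicle library and 47.5% above.

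**Figure D3:**
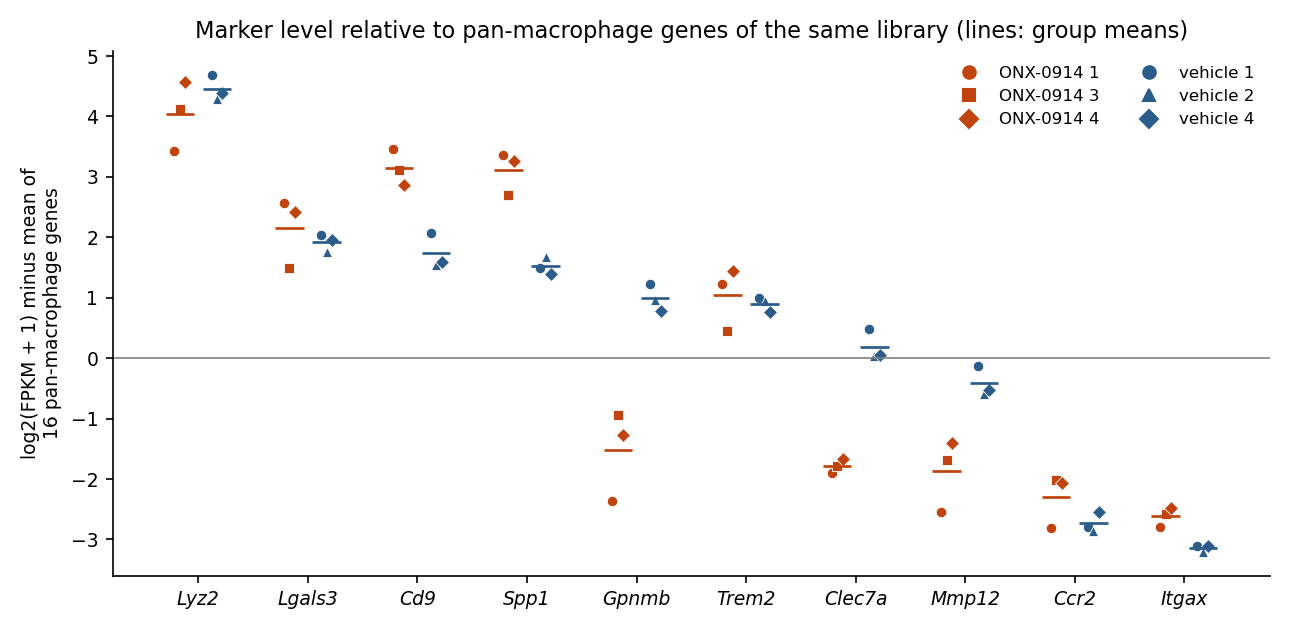
Log2(FPKM + 1) of each marker minus the mean over 16 pan-macrophage genes in the same library, ONX-0914 left of vehicle within each gene, with a short line at each group's mean (n = 3 each). Gpnmb, Clec7a and Mmp12 sit between -2.55 and -0.94 in treated libraries and between -0.59 and 1.23 in vehicle libraries, Spp1 and Cd9 are higher in treated libraries, and Trem2 overlaps.

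The partners of these receptors and ligands did not move as a block. Of 10 TREM2 and Dectin-1 signalling genes 9 were tested, and 4 fell and none rose (4 and none at an unadjusted p under 0.05), with a median of -0.36. That is about the share of all genes called lower, 43.5%. The kinase gene Syk (-1.18) and Malt1 (-1.12) and Bcl10 (-1.14), which act below Dectin-1, fell, as did Inpp5d (-0.96), a lipid phosphatase gene. Malt1 and Inpp5d passed the filter on low values only through the vehicle libraries. Tyrobp, the adaptor that TREM2 needs, was at 490, 110 and 345 FPKM with ONX-0914 and 243, 211 and 403 FPKM with vehicle. Treated libraries were thus both above and below the vehicle ones. Under ratio scaling 1 of the 9 fell, beside 14.2% of all genes, and after length correction limma called none, in either direction.

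Of 13 CCR2 ligands, integrin partners and osteopontin receptors 9 were tested, and 6 fell and none rose (7 and none at an unadjusted p under 0.05), with a median of -1.11. All tested genes had 43.5% lower, 2.56% higher and a median of -0.64. Among them were Itgb2 (-1.12), the beta chain that pairs with CD11c, Cd44 (-1.13), an osteopontin receptor, Itgb1 (-1.39) and Itga9 (-1.64). Cd44 and Itgam, both counted among the 6, passed the filter only through the vehicle libraries. Ccl2, the main CCR2 ligand, was at 3.26, 2.62 and 0.50 FPKM in treated libraries and 7.56, 5.39 and 3.21 FPKM in vehicle libraries. It was not called (-1.11, adjusted p = 0.0576). Under ratio scaling and after length correction 1 of the 9 fell, about the share of all genes called lower there, 14.2% and 11.6%.

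Further genes of the lipid-associated state were mostly lower. Of 20, 19 were tested, and 15 fell and none rose (15 and 1 at an unadjusted p under 0.05), with a median of -1.20. Of all tested genes 43.5% fell and 2.56% rose, with a median of -0.64. They include Lipa (-2.97), the lysosomal lipase gene, Cd36 (-2.68), a fatty acid transporter gene, Axl (-2.40), a receptor for dying cells, and Fabp4 (-2.28), a fatty acid binding protein gene. Several of these are also made by hepatocytes or endothelial cells. Under ratio scaling 9 fell and 2 rose, namely Fabp5 (1.52) and Ctsl (1.24), beside 14.2% of all genes lower and 13.8% higher. After length correction 10 fell and 1 rose, beside 11.6% of all genes lower and 9.51% higher. Lipa was at 14.4, 21.4 and 12.2 FPKM in treated libraries and 131, 112 and 146 FPKM in vehicle libraries, so ONX-0914 3 was as clearly low as the others.

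Monocyte genes gave a mixed picture. Of 14, 11 were tested, and 2 fell (Ms4a6c at -0.99 and Nr4a1 at -0.62) and 1 rose, with a median of -0.46, beside 43.5% of all genes lower and 2.56% higher. Nr4a1 passed the filter only through the vehicle libraries. The riser was Cd14, the co-receptor for bacterial lipopolysaccharide, at 24.99, 18.7 and 19.7 FPKM with ONX-0914 and 9.52, 5.09 and 8.30 FPKM with vehicle (1.38 ± 0.28 SE, adjusted p = 0.0053 by limma). Ly6c2, which marks inflammatory monocytes, was at 6.86, 3.15 and 17.3 FPKM in treated libraries and 14.0, 6.48 and 19.2 FPKM in vehicle libraries and was not called (-0.64, adjusted p = 0.343). Under ratio scaling none fell by limma, nor at an unadjusted p under 0.05, Cd14 rose, and the median was 0.27. Of all genes 14.2% were then lower and 13.8% higher. Without ONX-0914 3, 4 fell and 3 rose, beside 60.6% of all genes lower and 6.89% higher, and the monocyte median was 0.36.

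Of 15 Kupffer cell markers 14 were tested, and 6 fell and none rose (6 and none at an unadjusted p under 0.05), with a median of -0.33. The count is about the share of all genes called lower, 43.5%. Cd5l (-2.20), Slc40a1 (-1.97), Vsig4 (-1.79) and Timd4 (-1.18) fell, whereas Clec4f had -0.01 (adjusted p = 0.988). Under ratio scaling 3 fell, beside 14.2% of all genes, and the median was 0.41. Of 12 dendritic cell markers 5 were tested, and 6 were below 1 FPKM in every library. Among the tested ones 2 fell and none rose (3 and none at an unadjusted p under 0.05), beside 43.5% of all genes lower and 2.56% higher. Irf8, a transcription factor gene, was among the 2, at -0.76. The other, Zbtb46, passed the filter only through the vehicle libraries. Under ratio scaling 1 fell and 1 rose, beside 14.2% of all genes lower and 13.8% higher. The riser was Batf3 (1.21, adjusted p = 0.0168 by limma), while Irf8 was at -0.11 (adjusted p = 0.74). Their summed level was 13.8 to 14.9 FPKM in treated libraries and 16.4 to 20.8 FPKM in vehicle libraries. Endothelial markers and many stellate cell markers moved in the same direction as Gpnmb. So did many genes of the further lipid-associated, the CCR2 and integrin, and the pan-macrophage lists, with medians of -1.20, -1.11 and -1.09. The remaining lists had medians from -0.54 for dendritic cells to 0.53 for neutrophils, beside -0.64 over all tested genes. All 11 tested endothelial markers fell, with a median of -1.76, beside 43.5% of all genes, and 7 of 12 stellate cell markers fell with a median of -1.11. Kdr, Tek and Ptprb of the endothelial list and Pdgfrb of the stellate cell list passed the filter only through the vehicle libraries. Under ratio scaling 9 endothelial and 5 stellate cell markers fell, beside 14.2% of all genes. The summed level of the endothelial list was 36.3 to 65.7 FPKM in treated libraries and 188 to 201 FPKM in vehicle libraries, and that of the stellate cell list 102 to 231 and 385 to 459 FPKM. Of 12 hepatocyte genes 5 fell and 1 rose, beside 43.5% of all genes lower and 2.56% higher. Under ratio scaling none of the 12 fell and 2 rose, beside 14.2% of all genes lower and 13.8% higher. Whether fewer non-parenchymal cells in the sampled tissue had a part in the marker values was not tested.

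**Figure D4:**
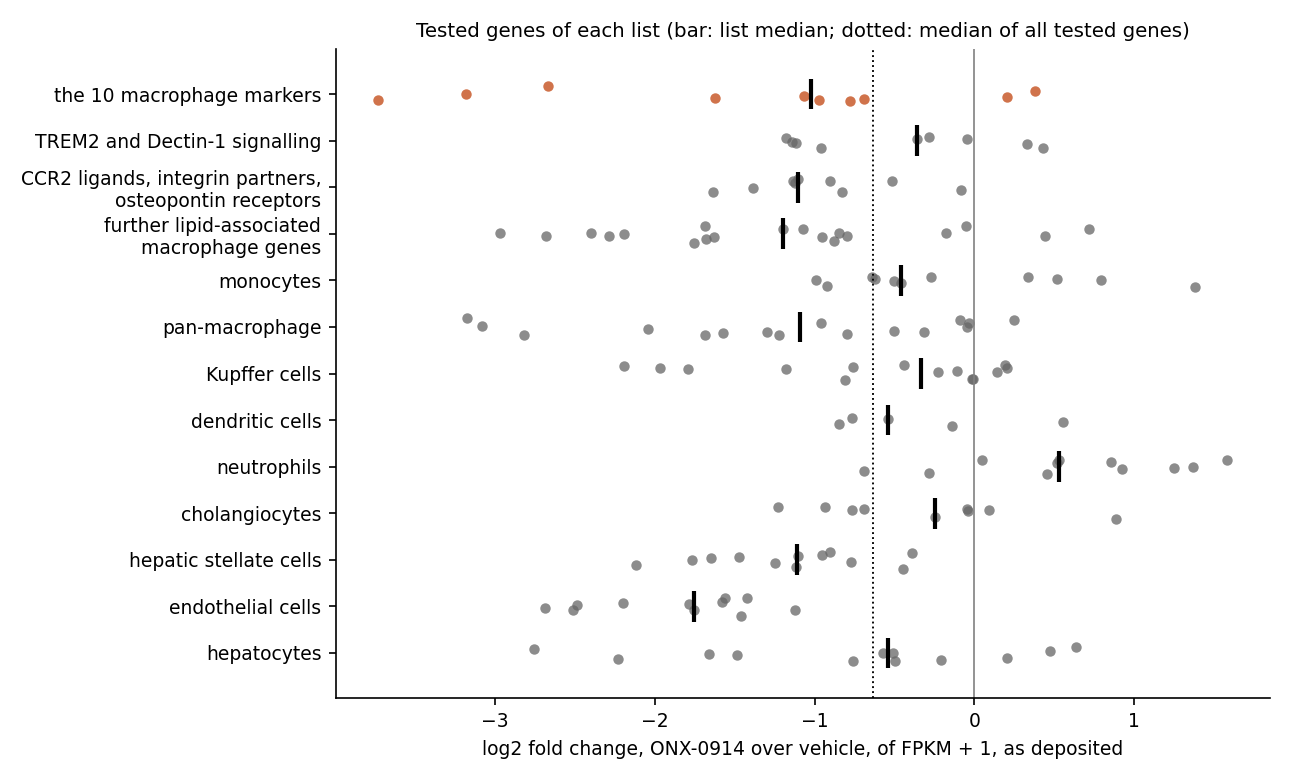
Log2 fold change, ONX-0914 over vehicle, of each tested gene as deposited, by gene list, with a bar at the list's median and a dotted line at the median of all tested genes (-0.64). The 10 markers spread from -3.73 to 0.38, wider than the dendritic cell, monocyte or cholangiocyte lists. A wide spread is not particular to them. The further lipid-associated list spreads from -2.97 to 0.72, the pan-macrophage list from -3.18 to 0.25 and the hepatocyte list from -2.76 to 0.64. All 11 endothelial genes lie left of the dotted line.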

How the data were processed

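Liver RNA of 6 libraries was extracted with TRIzol and its mRNA sequenced, per the labels' protocols. Names found in the submitters' processing notes are GRCm38 and mm10 (builds), edgeR, featureCounts 1.6.0, HISAT2 2.0.1, cutadapt 1.11 and FastQC 0.11.5. No role is stated for any of them, and no source used here names an annotation. FPKM is the unit of the matrix that the authors deposited, as judged from its values, which carry 2 decimals. Whether it rests on reads or fragments is not stated.

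The 10 markers and the 12 other gene lists were chosen with earlier results of these data known. The test was limma 3.58.1 (R 4.3.3, trended variance, no replicate term) on log2(FPKM + 1) of 10743 genes, those over 1 FPKM in 3 or more libraries, and p-values were adjusted over all of them after Benjamini and Hochberg. The added 1 makes fold changes of low genes too small. Tests on simulated data with known changes preceded the fit. Named are the markers, paralogs of Lyz2 and Itgax, some of the genes most like a marker and, per list, up to 4 called members with the largest changes. Clec4f, Aif1, Tyrobp, Fcgr1, Ccl2, Ly6c2, S100a8, Krt19, Cftr, Anxa4, Alb, Apoa1, Hnf4a, Batf3, Fabp5, Ctsl and those said to have passed the filter only through vehicle were named after their values were seen. Ratio scaling uses median ratios to the geometric mean over libraries. Length correction subtracts a lowess curve (span 0.3) fitted per library over the longest GENCODE M21 transcript, known for 98.2% of tested genes. Cd68 and Tyrobp are each in 2 lists. Promoter windows come from RefSeq (GRCm38.p6), matched by symbol for all 10 markers. No read totals were given, so the read numbers are rough estimates that assume those lengths, and the low markers are the least precise.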

Additional observations from a re-analysis of the deposited data

How the results depend on the processing

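The scaling of libraries decided most calls other than those of Gpnmb, Clec7a and Mmp12. Against 8 markers lower and 0 higher as deposited (4673 genes lower and 275 higher), there were 3 lower and 2 higher under median ratio scaling (1528 and 1481 genes) and when centred on pan-macrophage genes (298 and 3856), 4 and 0 after quantile normalization (1334 and 1118), and 5 and 0 after length correction (1219 and 1004). In those settings 3, 3, 4 and 5 markers had every ONX-0914 library below every vehicle library, against 8 as deposited. Itgax and Ccr2 were at 0.10 and 0.011 after quantile normalization, 0.18 and 0.15 after length correction and 0.52 and 0.43 when centred on pan-macrophage genes, where Trem2 and Lgals3 were at 0.14 and 0.24. No marker with a changed sign passed the threshold in these settings, and the cause was not tested. Leaving out 1 library at a time gave Cd9 values of -0.026 to 0.42, 4 to 8 markers lower and 0 to 1 higher (2590 to 6514 genes lower and 92 to 740 higher). In ONX-0914 3 alone Spp1 was at -0.024, and 2992 genes were lower. Numbers 1 and 4 occur in both groups. Same-numbered libraries deviated together with correlations of 0.0011 and 0.13 over genes, and with 2 pairs the numbers are not taken as pairs. With the number as a replicate block 8 markers and 5973 genes were lower and 604 genes higher. The length-corrected differences from Trem2 were added after the data were seen.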

Other observations

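Over the 6 libraries, the gene of the other lists most like each marker was looked up among 136 tested genes, by Pearson's r of log2(FPKM + 1). Lgals3 ran closest with Capg, an actin-capping protein gene (r = 0.999, Spearman's rho = 1.00), Itgax with Irf8, a transcription factor gene of dendritic cells and monocytes (r = 0.998, rho = 0.94), and Clec7a with Cybb (r = 0.995, rho = 0.77). Gpnmb ran closest with Pecam1, an endothelial gene (r = 0.993, rho = 1.00). These 6 points share their libraries and fall into the treated and vehicle groups, so a high value says mainly that both genes differ between the groups in the same way. Spp1 ran closest with Fabp5 (r = 0.924, rho = 0.83), and both had their highest value in ONX-0914 1.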
